A study of Mus musculus with 6 samples.

Results

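A set of 7 genes that set cells on the path to bone was followed in the mouse palate: Runx1, Runx2 and Runx3, their shared partner Cbfb, and the bone factors Sp7, Atf4 and Zfp521. They were chosen by gene symbol, and all 7 were found among the 23420 genes of the count tables and passed the filter on low counts that left 16604 genes for testing. The tissue was dissected at E14.5 from the region that becomes the anterior hard palate, in C57BL/6 embryos, with 3 libraries per genotype. Mutants were Shox2Cre/-;Nkx2.5F/F and controls were Shox2Cre/+;Nkx2.5F/F. All embryos therefore carried 1 Shox2Cre allele and a homozygous floxed Nkx2.5 gene, and Cre from the Shox2 locus is made where Shox2 is active. Only the mutants lacked the wild-type Shox2 allele. The controls, titled WT in the labels, are thus not wild type. Whether 1 embryo or a pool went into each library is not stated in the labels, so the p-values rest on the spread among libraries, which may be technical in part.

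In the bone of the skull and palate, mesenchymal cells turn directly into osteoblasts without a cartilage model. RUNX2 binds DNA as a dimer with CBFB and commits these cells, and SP7 (osterix) acts after RUNX2 to complete the step. ATF4 serves the later osteoblast, where it drives amino acid uptake and matrix synthesis. RUNX1 is best known from blood stem cells and is also found in palatal epithelium and early skeletal mesenchyme, and RUNX3 from sensory neurons, T cells and cartilage. ZFP521 is a zinc finger protein that antagonises RUNX2 and delays osteoblast maturation.

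The 3 Runx genes each have a distal and a proximal promoter, and their distal promoters carry the same letters. RefSeq windows on GRCm38.p6, from 250 bases before to 50 bases after a transcription start, were held for 5 of the 7 genes. The longest run of letters common to the 3 distal windows was 18 bases. It is shown in capitals within 30 bases of each gene, because these paralogs differ in their response below, and it holds the letters ACCACA, the core that RUNX proteins bind, in tandem.
Runx1: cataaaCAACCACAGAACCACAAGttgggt
Runx2: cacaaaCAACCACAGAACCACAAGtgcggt
Runx3: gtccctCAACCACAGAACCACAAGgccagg
These stretches lie on the minus strand at chr16:92826025-92826054 for Runx1, on the minus strand at chr17:44814583-44814612 for Runx2, and on the plus strand at chr4:135120503-135120532 for Runx3. Counted from the annotated start, the run begins at base 27 in Runx1, at base 22 in Runx2 and at base -136 in Runx3. Of 32851 windows of this length, 4 held the run on either strand (0.012%). The fourth belongs to Gm16225, whose window overlaps that of Runx3. The core ACCACA alone, searched on both strands, stood in 16.8% of windows. It was in none of the windows held for Cbfb, Atf4 and the proximal starts of Runx1 and Runx3. A match of letters describes these windows and does not show binding.

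Total counts were 52668242 to 53331397 in the mutants and 81950407 to 134813429 in the controls, so every mutant library was shallower. Shox2 checked the labels, with 5.31, 4.12 and 3.13 CPM (counts scaled to library size with TMM factors) in mutants and 88.2, 68.2 and 81.7 CPM in controls. Among counts from 5 to 50, 99.7%, 73% and 65.9% were even in mutant replicates 1, 2 and 3 and 63.6% to 64.5% in the controls. Mutant replicate 1, which also had the highest Runx1 and the lowest Sp7, stood apart in this, and the reason is not stated. Values without it are given below for Sp7, Runx1, the Runx2 share and the ratio of Sp7 to Runx2. Palatal mesenchyme markers were all present, 8 of 8, with summed levels of 1526 to 1745 CPM in mutants and 2107 to 2284 CPM in controls. In bulk tissue, fewer cells of a type and less RNA per cell cannot be told apart.

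Between genotypes, 4 of the 7 factors fell in the mutant palate (Runx2, Sp7, Cbfb and Atf4), 1 rose (Runx1) and 2 did not pass (Runx3 and Zfp521). The test was edgeR's quasi-likelihood test with Benjamini-Hochberg adjustment over all 16604 genes and a threshold of 0.05. Of all genes tested, 21.7% were called lower and 24.1% higher, 45.8% in all. For 5 of the 7 factors the mutant and control libraries did not overlap, against 58.9% of all genes tested (29.2% lower and 29.7% higher in the mutant). With calls and separated groups this common across all genes, nothing particular to the factors is drawn from these counts.

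**Figure D1:**
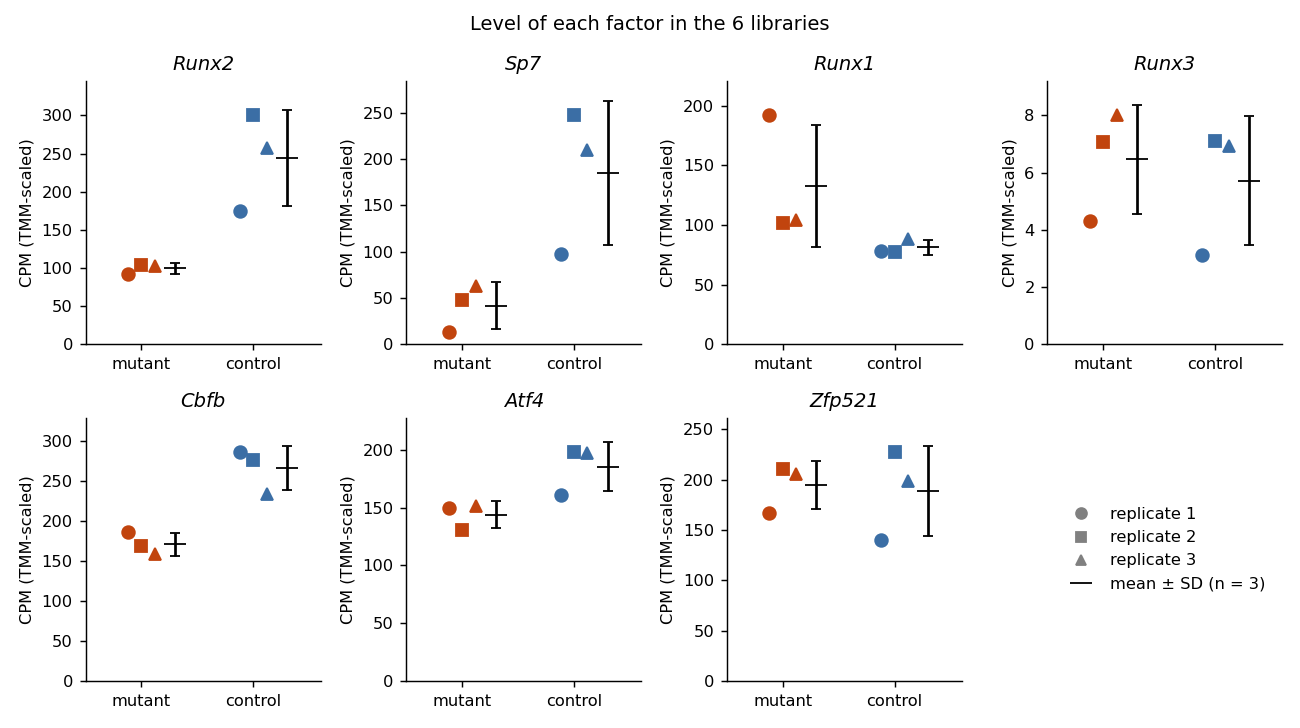
Level of each factor in TMM-scaled CPM (vertical axes, from 0) in 3 mutant and 3 control libraries, with marker shapes for replicates and black bars for the mean and SD (n = 3 each). Runx2, Sp7, Cbfb and Atf4 lie lower in every mutant library, Runx1 lies higher, and the groups overlap for Runx3 and Zfp521.

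Runx2, without which no bone forms in the mouse, had 91.6, 103 and 103 CPM in mutant replicates 1, 2 and 3 and 175, 300.1 and 257 CPM in control replicates 1, 2 and 3. The mutants were tightly grouped, and control replicate 1 was the lowest control, still above every mutant. Means were 99.3 ± 6.67 CPM in mutants and 244 ± 63.4 CPM in controls (SD, n = 3 each), and the log2 fold change was -1.30 (SE 0.18, adjusted p = 0.00157 by edgeR). Runx2 was called under each of the 21 alternative settings, with log2 fold changes from -1.50 to -0.85. Of the 7 factors it alone was called when the edgeR test asked for a change beyond 1.5-fold (adjusted p = 0.0109). The gene spans chr17:44495987-44814797 on the minus strand (GRCm38). Its exons share 519 bases with the antisense gene Runx2os1, which is not listed in the tables, and the strand setting of the counting is not given, so antisense reads could be included. Supt3, which overlaps the locus without sharing exonic bases, had 17.4 ± 1.93 CPM in mutants and 17.3 ± 1.42 CPM in controls and was not called (log2 fold change 0.0024, SE 0.13).

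Sp7, the zinc finger factor required after Runx2, changed most of the 7. It had 13.5, 48.3 and 63.1 CPM in mutant replicates 1, 2 and 3 and 97.2, 247 and 209 CPM in control replicates 1, 2 and 3. The groups did not overlap, and replicate 1 was the lowest library in each group. The mean was 41.6 ± 25.4 CPM in mutants and 185 ± 78.0 CPM in controls (SD, n = 3 each), and Sp7 fell by 2.15 on the log2 scale (SE 0.57, edgeR adjusted p = 0.0181). The edgeR call was lost when mutant replicate 2 (-2.27, adjusted p = 0.054) or control replicate 2 (-1.88, adjusted p = 0.0508) was left out, and it was lost with Y-linked expression as a covariate (-1.37, adjusted p = 0.186). Y-linked expression was higher in every mutant library than in every control, so fits with this covariate cannot fully separate it from genotype. Without replicate 1 of both groups it was -2.05 (adjusted p = 0.000109), and without mutant replicate 1 it was -1.73 (adjusted p = 0.0167).

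Runx1, the blood and epithelial member of the family, moved the other way. Its level was 192, 101 and 104 CPM in mutant replicates 1, 2 and 3 and 78.3, 77.2 and 88.3 CPM in control replicates 1, 2 and 3. The groups did not overlap, with mutant replicate 1 standing far above the other mutants. Means were 132.5 ± 51.4 CPM in mutants and 81.2 ± 6.11 CPM in controls (SD, n = 3 each), and Runx1 rose by 0.71 on the log2 scale (SE 0.24, edgeR adjusted p = 0.0462). The call was close to the threshold: it was lost on leaving out control replicate 1 (adjusted p = 0.102), 2 (0.114) or 3 (0.0789), by limma-voom (0.0544), after a GC and length correction (0.0567) or with Y-linked expression as a covariate (0.158). Leaving out mutant replicate 1 gave a smaller rise, 0.34, that was called (adjusted p = 0.0156).

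Runx3 was the lowest of the 7 and its groups overlapped. It had 4.32, 7.07 and 8.004 CPM in mutant replicates 1, 2 and 3 and 3.13, 7.10 and 6.93 CPM in control replicates 1, 2 and 3. Its log2 fold change was 0.17 (SE 0.36, edgeR adjusted p = 0.72), and its sign turned without mutant replicate 3 (-0.0084) or control replicate 1 (-0.13). With Y-linked expression as a covariate it was 0.85 (adjusted p = 0.21).

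Cbfb, which all 3 RUNX proteins need for stable DNA binding, had 186, 168 and 158 CPM in mutant replicates 1, 2 and 3 and 286, 277 and 234 CPM in control replicates 1, 2 and 3. No mutant library reached the lowest control. The mean was 171 ± 14.2 CPM in mutants and 266 ± 27.6 CPM in controls (SD, n = 3 each), and Cbfb fell by 0.64 on the log2 scale (SE 0.10, edgeR adjusted p = 0.0023). It was called without any 1 of the 6 libraries (-0.72 to -0.58).

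Atf4, the stress-responsive factor of the mature osteoblast, had 150, 130 and 151 CPM in mutant replicates 1, 2 and 3 and 161, 198 and 197 CPM in control replicates 1, 2 and 3. The groups did not overlap, but mutant replicates 1 and 3 lay close to control replicate 1. Means were 144 ± 11.8 CPM in mutants and 185 ± 21.4 CPM in controls (SD, n = 3 each), and Atf4 fell by 0.37 on the log2 scale (SE 0.10, edgeR adjusted p = 0.0243). The edgeR call was lost on leaving out mutant replicate 2 (adjusted p = 0.0842), control replicate 2 (0.0776) or control replicate 3 (0.0818), and with Y-linked expression as a covariate (-0.18, adjusted p = 0.26).

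Zfp521, the antagonist of RUNX2, had 167, 210 and 206 CPM in mutant replicates 1, 2 and 3 and 140, 227 and 198 CPM in control replicates 1, 2 and 3. Replicate 1 was the lowest library of each group, as it was for Runx2, Runx3 and Sp7. Its log2 fold change was 0.05 (SE 0.18, edgeR adjusted p = 0.853). The sign was negative without mutant replicate 2 (-0.015), control replicate 1 (-0.14) or replicate 1 of both groups (-0.04), and the value was 0.44 with Y-linked expression as a covariate (adjusted p = 0.0979).

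**Figure D2:**
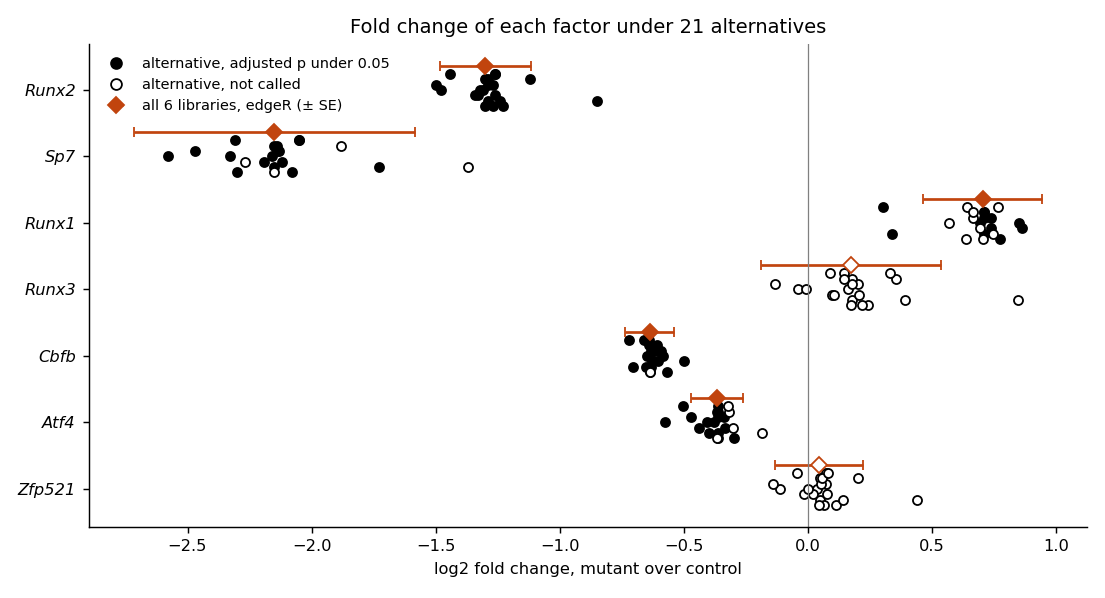
Log2 fold change of each factor, mutant over control (horizontal axis), with all 6 libraries (diamonds, bars are SE) and under 21 alternative settings (circles, filled where the adjusted p was under 0.05). Runx2 stays between -1.50 and -0.85 with every circle filled, whereas Runx1, Sp7 and Atf4 have open circles and Runx3 and Zfp521 straddle 0.

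Levels of different genes were compared as length-scaled CPM, that is counts divided by exonic length and scaled to the same total in each library. In mutants the order was Atf4 (246 ± 19.8), Cbfb (199 ± 22.04), Zfp521 (112 ± 11.9), Sp7 (49.0 ± 29.1), Runx2 (45.4 ± 2.32), Runx1 (44.8 ± 18.5) and Runx3 (5.20 ± 1.42). In controls it was Atf4 (288 ± 29.95), Cbfb (280 ± 30.1), Sp7 (199 ± 81.9), Runx2 (101 ± 25.0), Zfp521 (98.2 ± 21.9), Runx1 (24.8 ± 1.94) and Runx3 (4.19 ± 1.61), all as mean and SD over 3 libraries. Sp7, Runx2 and Runx1 did not differ beyond their spread in mutants, nor did Atf4 and Cbfb or Runx2 and Zfp521 in controls. Sp7 ranged from 106.5 to 263 over the controls and overlapped the control values of Atf4, Cbfb, Runx2 and Zfp521. Among the genes tested, Sp7 stood at the 66.6th percentile of length-scaled level in mutants and at the 93.6th in controls. Atf4 stood at the 96.4th percentile in mutants and at the 96.9th in controls.

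The make-up of the Runx family shifted towards Runx1. Per exonic length, Runx2 made up 38.1%, 54.3% and 53.2% of the Runx counts in mutant replicates 1, 2 and 3 and 73.5%, 81.2% and 76.9% in control replicates 1, 2 and 3. Runx1 made up 58.7%, 39.2% and 39.6% in the mutants and 24.1%, 15.4% and 19.4% in the controls. In mutant replicate 1, and in no other library, Runx1 exceeded Runx2. The Runx2 share averaged 48.5 ± 9.01% in mutants and 77.2 ± 3.86% in controls, a difference of -28.7 percentage points (two-sided exact permutation test, n = 3 each, p = 0.1, the smallest this design allows). Without mutant replicate 1 the difference was -23.5 percentage points. These shares and ratios do not depend on how libraries are scaled.

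Set against Cbfb, the partner they share, the summed Runx genes gave log2 ratios of -0.98, -1.17 and -1.05 in mutant replicates 1, 2 and 3 and -1.61, -0.93 and -0.83 in control replicates 1, 2 and 3. The groups overlapped, with a difference of 0.058 (exact permutation p = 1, n = 3 each) that was -0.185 without control replicate 1. For Runx2 alone the log2 ratio to Cbfb was -2.37, -2.05 and -1.96 in the mutants and -2.05, -1.23 and -1.21 in the controls, where control replicate 1 lay among the mutants (difference -0.63, exact permutation p = 0.3, n = 3 each). The log2 ratio of Sp7 to Runx2 was -1.38, 0.28 and 0.67 in the mutants and 0.53, 1.099 and 1.08 in the controls. Mutant replicate 3 exceeded control replicate 1, and the difference of -1.05 gave an exact permutation p = 0.2 (n = 3 each). It was -0.427 without mutant replicate 1.

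**Figure D3:**
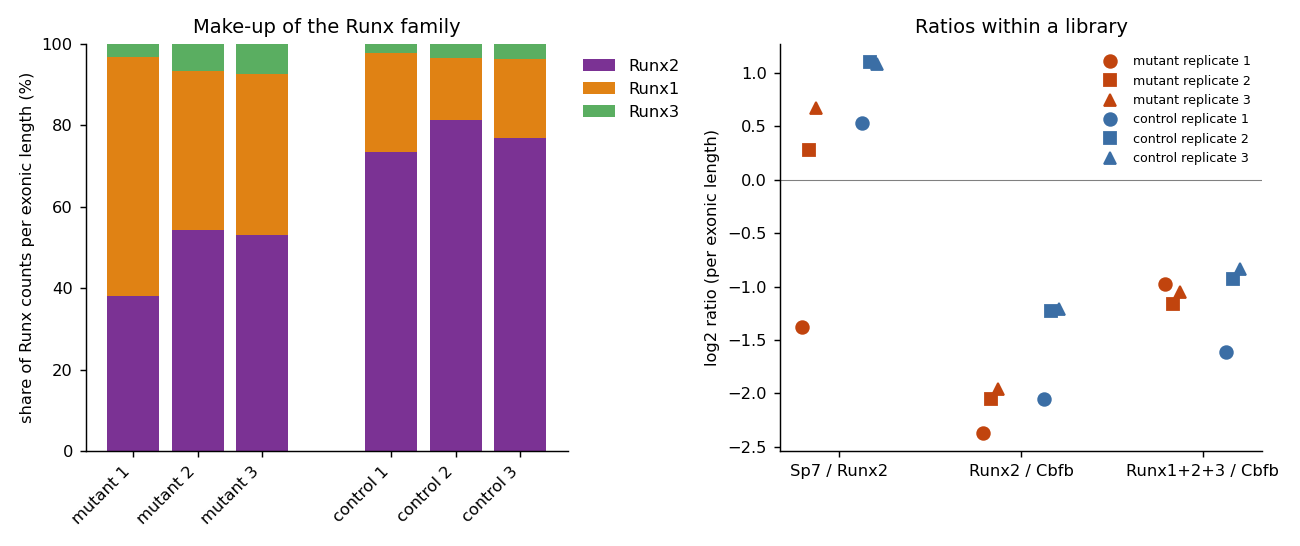
Left, share of Runx2, Runx1 and Runx3 in the Runx counts per exonic length, in percent, for each library, mutants before controls. Right, log2 ratios per exonic length within each library, marker shapes giving the replicate. The Runx2 share is at most 54.3% in mutants and at least 73.5% in controls, while the ratios to Cbfb overlap between genotypes.

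Of 28 listed bone genes downstream of RUNX2 and SP7, 27 were tested, 15 fell, 3 rose and 9 did not pass. That is 55.6% lower and 11.1% higher, against 21.7% and 24.1% of all genes tested, and the median log2 fold change was -1.26, against -0.0043 over all genes. With Y-linked expression as a covariate 7 fell and 3 rose. With the smallest p were Pth1r, the parathyroid hormone receptor (-1.54, SE 0.23), Tnfsf11, the osteoclast signal RANKL (-2.76, SE 0.46), Phex, an endopeptidase of mineralising cells (-2.99, SE 0.51), and Ifitm5, an osteoblast membrane protein (-3.80, SE 0.66). Their edgeR adjusted p lay between 0.0019 and 0.0034. Tnfsf11 had 0.327, 0.851 and 1.12 CPM in the mutants and 3.48, 6.5 and 5.61 CPM in the controls. Ifitm5 had 1.96, 4.35 and 5.72 CPM in the mutants and 16.6, 86.1 and 64.1 CPM in the controls, so mutant replicate 1 and control replicate 1 were the lowest of their groups, as for Sp7. The members that rose were Col5a3 (1.51, SE 0.36) and Fmod (0.62, SE 0.22), both of the matrix, and Vegfa (0.35, SE 0.11). Mepe had no count in the mutants and 591 over the controls, 102-fold lower when 3 counts are allowed over all mutants together. Most low counts are even, so this floor may be too low and the fold too large. Bglap, osteocalcin, was too low to test, with 4, 0 and 0 counts in the mutants and 3, 28 and 92 in the controls. Without replicate 1 of both groups 22 fell and 3 rose.

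Collagen I, made by osteoblasts and by other mesenchyme, was not called with all 6 libraries. Col1a1 had 5515, 4420 and 4270 CPM in the mutants and 1857, 6328 and 5140 CPM in the controls, and the list's other abundant matrix genes Col1a2 (-0.20, SE 0.31) and Sparc (-0.15, SE 0.32) also did not pass. These genes, Bglap, Mepe and the risers were singled out after their values were seen. Control replicate 1 was again the lowest control, and the lack of a call leans on it. Col1a2 had 4399, 4272 and 4259 CPM in the mutants and 2551, 6602 and 5682 CPM in the controls. Sparc had 1166, 1186 and 1211 CPM in the mutants and 644, 1697 and 1599 CPM in the controls. For both, every mutant lay above control replicate 1 and below the other controls. Without control replicate 1, 21 genes of the bone list fell and 3 rose.

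Of 30 listed factors that act above or beside RUNX2, 29 were tested, 10 fell, 5 rose and 14 did not pass (median -0.12). That is 34.5% lower and 17.2% higher, against 21.7% and 24.1% of all genes tested. With Y-linked expression as a covariate 3 fell and 6 rose, so the balance of this list turned. Lef1, a mediator of WNT signalling, fell to 10.9, 11.8 and 13.6 CPM in the mutants, against 43.2, 29.5 and 37.3 CPM in the controls (-1.60, SE 0.16, edgeR adjusted p = 0.00047). The other 3 with the smallest p rose: the AP-1 members Fosl2 (0.91, SE 0.14) and Junb (0.95, SE 0.15), and the retinoblastoma gene Rb1 (0.75, SE 0.12). Of 28 listed repressors or degraders of RUNX2, 27 were tested, 6 fell, 2 rose and 19 did not pass (median -0.11). Snai2 (-0.58, SE 0.08), Hey1 (-0.72, SE 0.14), the ubiquitin ligase Stub1 (-0.40, SE 0.08) and Twist1 (-0.44, SE 0.11) had the smallest p, with edgeR adjusted p from 0.0012 to 0.012. The list's shares of 22.2% lower and 7.41% higher compare with 21.7% and 24.1% of all genes tested. Over all settings the list's calls ranged from 0, against a 1.5-fold change, to 15, with the GC and length correction not recentred; leaving out 1 library gave 5 without mutant replicate 2 or 3 and 4 without control replicate 2.

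Of 12 genes that work with ZFP521 or are related to it, all tested, 7 fell, none rose and 5 did not pass (median -0.51). That is 58.3% lower, against 21.7% of all genes tested, but 1 of the 12 was called against a 1.5-fold change. Those with the smallest p were subunits of histone deacetylase complexes: Hdac2 (-0.63, SE 0.07), Rbbp4 (-0.73, SE 0.10), Hdac1 (-0.53, SE 0.07) and Rbbp7 (-0.48, SE 0.08), with edgeR adjusted p from 0.00053 to 0.0025. Zfp423, the close relative of Zfp521, did not pass (-0.08, SE 0.10).

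Of 35 regulators and targets of ATF4, all tested, 11 fell, 3 rose and 21 did not pass (median -0.18). That is 31.4% lower and 8.57% higher, against 21.7% and 24.1% of all genes tested, and with library size as the only scaling 7 fell and 6 rose. Mthfd2, of mitochondrial folate metabolism, fell (-0.93, SE 0.10), as did the translation repressor Eif4ebp1 (-0.75, SE 0.14) and the aminotransferase Gpt2 (-0.40, SE 0.09), while Shmt2, which feeds the same folate cycle, rose (0.58, SE 0.11). Their edgeR adjusted p lay between 0.00052 and 0.0093. Without mutant replicate 2 this list had 4 lower and 2 higher, without control replicate 2 it had 7 and 2, and without control replicate 3 it had 5 and 3.

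**Figure D4:**
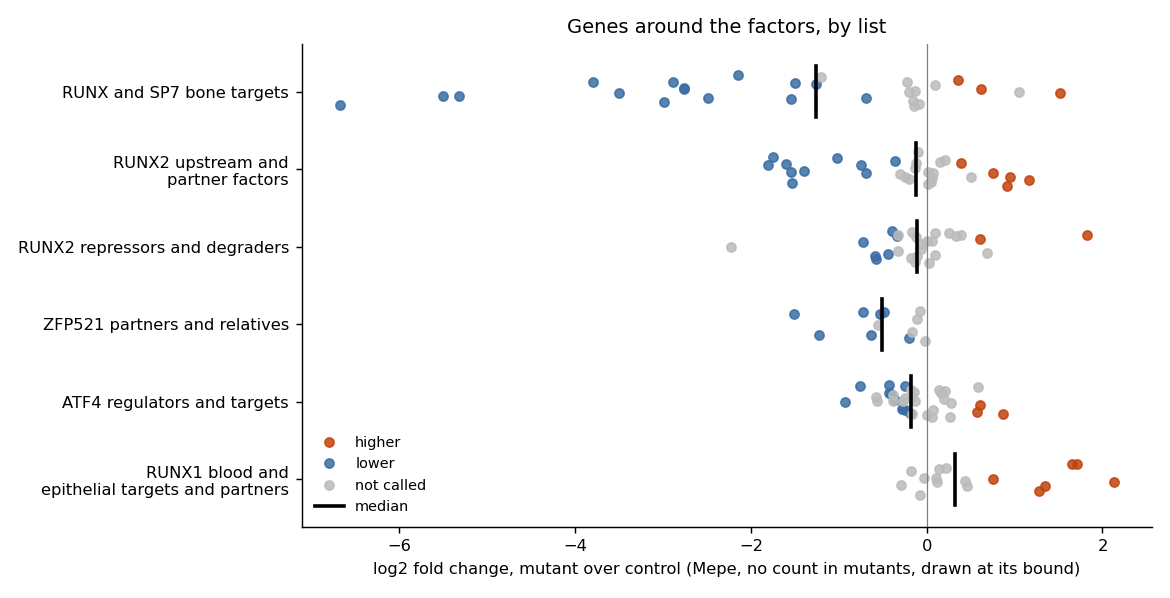
Log2 fold change, mutant over control (horizontal axis), of each tested gene in 6 lists around the factors, coloured by call, with the list median as a black line. The bone targets have a median of -1.26 and reach far to the left, while the other 5 medians lie between -0.51 and 0.33.

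Of 17 listed partners and targets of RUNX1 in blood and epithelium, 16 were tested, 6 rose, none fell and 10 did not pass (median 0.33). That is 37.5% higher, against 24.1% of all genes tested. Itga2b, the megakaryocyte integrin, had 15.5, 17.2 and 16.1 CPM in the mutants and 4.59, 5.03 and 5.28 CPM in the controls (1.71, SE 0.13, edgeR adjusted p = 0.00023). Csf1r, the macrophage growth factor receptor (1.65, SE 0.23), Myb, a progenitor factor (2.13, SE 0.31), and Spi1, listed as Sfpi1 (0.75, SE 0.20), also rose. Csf1r is also among the macrophage markers. Gata1 (1.35, SE 0.42) and Gfi1 (1.28, SE 0.43) rose too, so all 6 that rose are genes of blood cells. Stat3 (0.46, SE 0.16), Lgr5 (0.44, SE 0.28), Socs3 (0.14, SE 0.13) and Sox4 (-0.29, SE 0.14) were not called. Without mutant replicate 2, 3 genes of this list were called. With Y-linked expression as a covariate 5 rose and 1 fell, and with the GC and length correction not recentred 4 rose and 2 fell.

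Markers of some cell types in which Runx1 is known moved with it. Those of palatal mesenchyme did not, with 4 of 8 lower and none higher (median log2 fold change -0.36). Of 8 epithelial markers, all 8 rose, with summed levels of 3864 to 4316 CPM in mutants and 810.5 to 1348 CPM in controls. For comparison, 24.1% of all genes tested were called higher and 21.7% lower. Of 8 macrophage markers, 7 rose, with sums of 161 to 215 CPM in mutants and 52.3 to 80.5 CPM in controls. The list of T, NK and mast cells had 5 of 8 tested, and 4 rose, all of them genes of mast cells (Kit, Cpa3, Mcpt4 and Cma1), with sums of 107 to 130 CPM in mutants and 30.4 to 42.4 CPM in controls. T cell markers were at or near 0, with Cd3e at 2, 0 and 0 counts in the mutants and 0 in every control. Mutant replicate 1, the library with the most Runx1, had the lowest macrophage sum of the mutants (161 CPM) and an epithelial sum (4309 CPM) close to that of mutant replicate 3 (4316 CPM). The part of these cells in the Runx1 result was not tested. Of 4 endothelial markers none passed, with sums of 362 to 497 CPM in mutants and 313 to 399 CPM in controls. Of 2 tested red cell markers none passed (18.7 to 25.5 CPM in mutants, 20.9 to 30.1 CPM in controls).

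**Figure D5:**
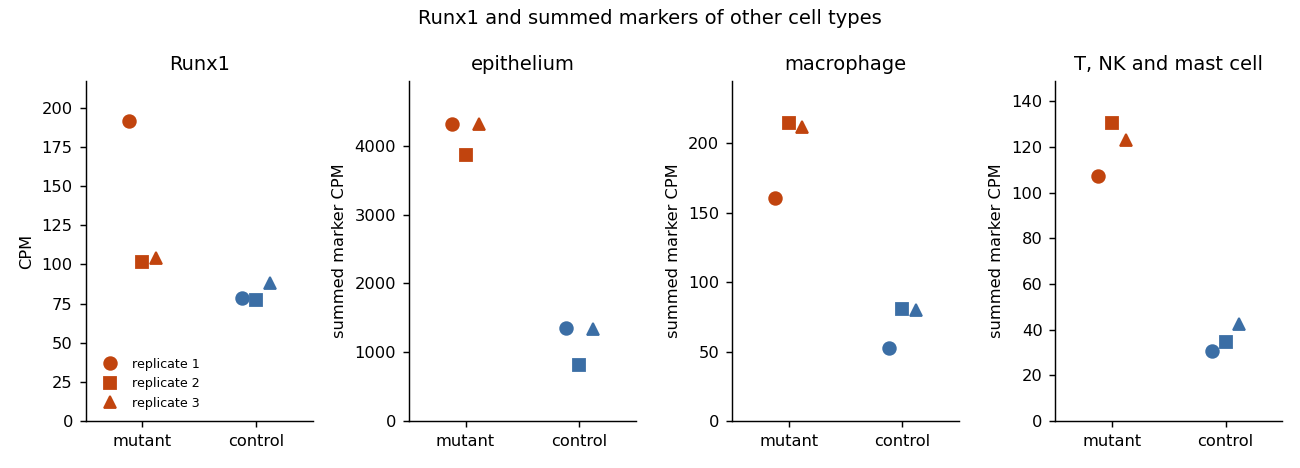
Runx1 level and the summed levels of epithelial, macrophage, and T, NK and mast cell markers, in TMM-scaled CPM (vertical axes, from 0), for 3 mutant and 3 control libraries. All 4 quantities are higher in every mutant library, and mutant replicate 1 is highest for Runx1 (192 CPM) and lowest among mutants for macrophage markers (161 CPM).

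Markers of the cells that carry Runx2 and Sp7 were set beside them in the same way. Of 7 osteoblast markers 6 were tested, 4 fell, and Col1a1 and Bglap2 did not pass. That is 66.7% lower, against 21.7% of all genes tested. All 7 are also in the list of bone genes downstream of RUNX2 and SP7, so these calls are not separate from that list. Their summed levels overlapped, at 4486 to 5606 CPM in mutants and 2295 to 8858 CPM in controls, and most of each sum was Col1a1. Alpl, the phosphatase of early osteoblasts, had 72.4, 140 and 149 CPM in the mutants and 128, 384 and 353 CPM in the controls, so the groups overlapped. Ibsp, a RUNX2 target in bone matrix, had 4.51, 23.6 and 58.6 CPM in the mutants and 303, 2020 and 1616 CPM in the controls. Of 6 cartilage markers 2 fell (Col2a1 and Ihh) and 4 did not pass, with sums of 116 to 204 CPM in mutants and 203 to 317 CPM in controls. Of 6 sensory neuron markers, which include cells known for Runx3, 1 rose, 2 fell and 3 did not pass, with sums of 161 to 170 CPM in mutants and 129 to 163 CPM in controls. Whether fewer osteoblasts account for the lower Runx2 and Sp7 was not tested.

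The genes most alike to each factor were those with the smallest distance between log2 CPM profiles, each centred on its own mean, over the 6 libraries. Nearest to Sp7 were Insc (distance 0.536), Slc8a3 (0.659) and Smpd3 (0.849), a sphingomyelinase needed for bone mineralisation. Smpd3, also in the list of bone genes above, had 14.6, 38.3 and 53.8 CPM in the mutants and 114, 376 and 298 CPM in the controls. Replicate 1 was lowest in each group, as for Sp7. A pattern shared with Sp7 follows from how the nearest genes were chosen and is no separate support. Nearest to Runx2 were Myom1 (0.242), Stbd1 (0.267) and Mdga1 (0.338). Nearest to Runx1 were Tnc (0.106), the matrix protein tenascin C, Cldn1 (0.21), an epithelial claudin, and Lrdd (0.247). Tnc averaged 1050 ± 382 CPM in mutants and 662 ± 36.2 CPM in controls. Cbfb was nearest to Gxylt1 (0.0935), Pcbp4 (0.105) and E2f6 (0.107). Atf4 was nearest to Sap18 (0.108), Aars (0.117), an alanyl-tRNA synthetase also in the ATF4 list, and Ssr3 (0.121). Runx3 was nearest to Aspn (0.339), Gem (0.358) and Arsi (0.38), and Zfp521 to Scarf1 (0.106), B3gnt9 (0.136) and Dusp3 (0.137).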

How the data were processed

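RNA sequencing of E14.5 palate gave 6 tables of whole-number read counts per gene symbol, as deposited by the authors. Per the submitters' processing notes, HISAT2 and StringTie were used, with mm9 and mm10 named as builds. No counter, strand setting or annotation is named in the sources used here. Counts were analysed with edgeR 4.0.16 (filterByExpr, TMM, quasi-likelihood test, no covariate, adjusted p under 0.05) in R 4.3.3, with DESeq2 1.42.0 and limma 3.58.1 as alternatives. SE is the absolute log2 fold change over the square root of F. GENCODE M21 on GRCm38 gave positions and exonic lengths for 98.4% of symbols. The edgeR step was tested on simulated data. Most low counts are even, for a reason that is not stated and was not tested, so counting floors may be too low.

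The members, lists and tests were chosen with earlier results of these data known. From each list the text names at most 4 called genes, those of smallest p, and others were singled out after their values were seen. The nearest genes were 3 tested protein-coding autosomal genes with an average log2 CPM of at least 3. No 2 libraries of a group agreed within sampling noise (chi-square per degree of freedom 16.1 to 144.1). Symbols of 7 factors were matched to RefSeq promoters by name, 5 with a window.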

Additional observations from a re-analysis of the deposited data

How the results depend on the processing

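Runx2 kept its direction and its call under all 21 alternatives, and Cbfb under 20. With the test against a 1.5-fold change, 2472 genes were called (1967 higher, 505 lower), and Runx1 (0.71, adjusted p = 0.508), Cbfb (-0.64, 0.474), Sp7 (-2.15, 0.0603) and Atf4 (-0.37, 1) were not; the lists had 7 upstream factors, 0 repressors, 1 ZFP521 partner, 1 ATF4 gene and 3 RUNX1 genes called. Summed Y-linked levels were 199 to 244 CPM in mutants and 36.2 to 192 CPM in controls. The groups did not overlap, so this covariate is partly confounded with genotype. With it Runx1 (0.75, adjusted p = 0.158), Sp7 (-1.37, 0.186) and Atf4 (-0.18, 0.26) were not called, Runx3 was 0.85 and Zfp521 0.44. The lists then had 10 bone targets (7 lower), 9 upstream factors (6 higher, 3 lower), 2 repressors and 6 ATF4 genes called. Runx1 was not called by limma-voom (0.64) or with the GC and length correction, centred (0.70) or not recentred (0.57, adjusted p = 0.0983). Not recentred, that correction moved the median of all genes by -0.132, gave 3311 higher and 5213 lower calls against 3999 and 3607, turned Runx3 (-0.039) and Zfp521 (-0.11), and gave 15 repressors and 11 ZFP521 partners. Without replicate 1 of both groups Zfp521 was -0.043, the summed Runx to Cbfb difference -0.23, and 14 repressors were called.

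With replicate numbers as a block, Runx1 was 0.64 (adjusted p = 0.0576) and not called, no other factor's call changed, and 3720 genes were higher and 3302 lower. Same-numbered libraries deviated together only weakly (r = 0.081, 0.082 and 0.02 across genes). With 3 libraries per group, this cannot show whether same-numbered samples share more than a number.

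Leaving out 1 library at a time gave ranges of 0.34 to 0.86 for Runx1, -0.13 to 0.39 for Runx3, -2.58 to -1.73 for Sp7, -0.47 to -0.30 for Atf4, -0.14 to 0.20 for Zfp521 and -0.19 to 0.20 for the summed Runx to Cbfb difference, and 4 to 10 repressors, 6 to 16 ATF4 genes and 3 to 5 RUNX1 genes called. Halving the counts, thinning all libraries to the smallest total, other scalings, filters and DESeq2 changed no factor's call or direction. The causes of these changes were not tested. Depth and genotype coincide, so they cannot be told apart. In the thinned counts Runx2 was -1.30 and Sp7 -2.14, but thinning evens only the number of counts and leaves the expected fold changes as they were.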
